A study of Mus musculus with 6 samples.

Results

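The netrins and their receptors were followed here as 9 genes of 26814 in a table of RNA-Seq read counts from mouse lip. The 9 are the ligand genes Ntn1 and Ntn4, the receptor genes Dcc and Neo1, the 4 Unc5 receptor genes Unc5a, Unc5b, Unc5c and Unc5d, and Dscam. The set was chosen by the measured counts of Dcc, which was close to 0 in every WT library and counted in every library labelled KO. The other 8 genes were listed with it as members of the same ligand and receptor families, by a rule that names no value of theirs, although earlier results of these data were known when the list was made. The values of Dcc are given as a description with no test, and the other members were tested.

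Netrins are secreted proteins related to the laminins that guide growing axons and migrating cells. Receptors of the Dcc and neogenin family mostly mediate attraction to netrin, whereas the Unc5 receptors, alone or together with Dcc, mediate repulsion. Several of these receptors are also known as dependence receptors, which promote cell death when the ligand is missing, and outside the nervous system the family acts in blood vessels, epithelia and muscle.

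The study compared the top lip of 3 wild type (WT) mice with that of 3 mice homozygous for the targeted allele Gtf2ird1tm1Hrd, called Gtf2ird1 knockout (KO). All were adult females of the C57BL/6J strain, and each mouse gave 1 mRNA library. The allele is carried in every cell from conception, and no agent was given to either group. Gtf2ird1 encodes a DNA-binding transcription factor, and the question of the comparison is which transcripts of the lip differ in its absence.

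The libraries held between 20164081 and 29491767 counts. A gene with no count could still have had up to 3, which equalled 0.0986 to 0.154 CPM. These counts-per-million values (CPM) relate a count to the scaled size of its library. Gtf2ird1 itself had 70.2 to 78.2 CPM in the WT libraries and 144 to 166 CPM in those labelled KO (log2 fold change 1.11, SE 0.13, adjusted p = 0.0018). A count summed over a whole gene includes transcripts of a mutated allele, so this level does not tell whether the protein was lost. It goes against a label read as absence of the transcript, and the group is called the libraries labelled KO throughout. By the study's account, tail biopsies were taken to check the genotypes, and the KO mice had overgrown and wrinkled lips. KO3 stood apart from the other libraries labelled KO: across genes, its log2 CPM correlated with KO1 and KO2 at 0.957 to 0.969. KO1 and KO2 correlated at 0.984 and the WT libraries among themselves at 0.983 to 0.988. With the WT libraries, KO3 correlated at 0.948 to 0.955, and KO1 and KO2 at 0.907 to 0.933. Across genes KO3 thus lay closer to the WT than KO1 and KO2 did. Markers of epidermal keratinocytes, hair follicle, fibroblasts and skeletal muscle were all abundant in every library. In tissue of mixed cells, fewer cells of a type and less RNA per cell cannot be told apart.

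Between the genotypes, Neo1 rose and Unc5a fell, and no other member that could be tested passed an adjusted p of 0.05. Neo1 had 1.89 times the WT level in the libraries labelled KO, and Unc5a had 0.394 times the WT level. Of the 9 members, 8 reached 1 CPM in at least 3 libraries, Dcc only through the libraries labelled KO, and Dscam did not. Of the 7 tested members other than Dcc, 1 was higher and 1 was lower, beside 4.38% of all 15009 tested genes called higher and 2.09% called lower (6.47% in both directions). An unadjusted p under 0.05, a measure given beside some counts of 0, was reached by 29.6% of all tested genes. Where other tests are named below, the exact test of edgeR called 14.9% of all tested genes. DESeq2 called 14.7% of the genes to which it gave an adjusted p. In 3 of the 7 members the values of the groups did not overlap, beside 31.5% of all tested genes. The log2 fold change was negative for 6 of the 7, with a median of −0.44, while 52.0% of all tested genes had a negative value, with a median of −0.02.

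**Figure D1:**
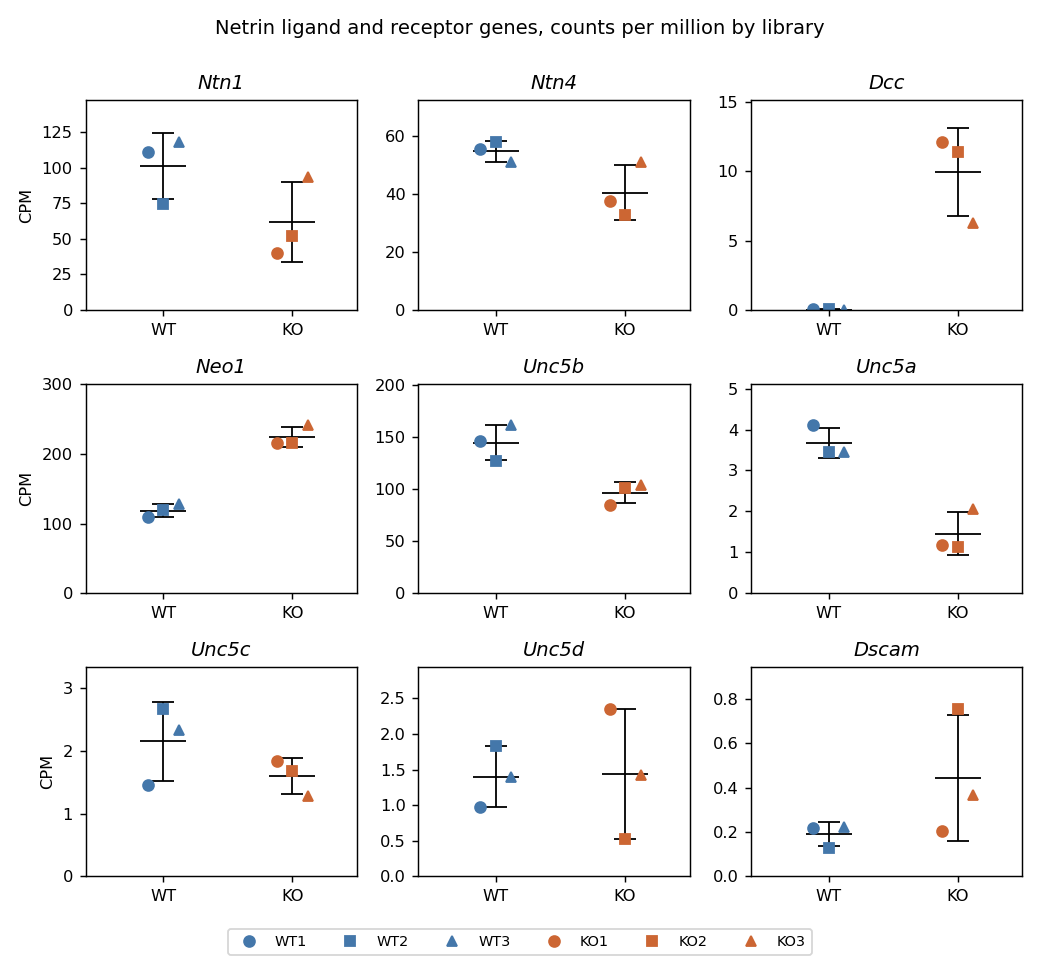
Each panel plots 1 gene in CPM (linear axis from 0) for the 3 WT libraries and the 3 libraries labelled KO, with the mean and the SD as bars. Neo1 and Dcc lie higher in all 3 libraries labelled KO, Unc5a and Unc5b lie lower in all 3, and the groups overlap in the other 5 genes.

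Ntn1 encodes netrin-1, the main attractant of commissural axons and a ligand of Dcc, neogenin and the Unc5 receptors (chromosome 11, 68209364 to 68400823, GRCm38). Its level was 111 CPM in WT1, 74.7 in WT2 and 118 in WT3, and 39.9 in KO1, 52.1 in KO2 and 93.6 in KO3. KO1 and KO2 lay below every WT library, whereas KO3 lay above WT2, so the groups overlapped. The means were 101 ± 23.2 CPM for WT and 61.9 ± 28.2 CPM for KO (SD, n = 3 each), a log2 fold change of −0.71 (SE 0.32, adjusted p = 0.175). Without KO3 the log2 fold change was −1.13 and passed the threshold (adjusted p = 0.00507). In that fit, however, 33.0% of all tested genes were called.

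Ntn4 encodes netrin-4, a netrin found in basement membranes that binds laminin (chromosome 10, 93640681 to 93747207). It had 55.5, 57.9 and 50.9 CPM in WT1 to WT3, and 37.5, 32.7 and 51.1 CPM in KO1 to KO3. Here too KO3 was the highest of its group and lay at the level of WT3, while KO1 and KO2 lay below every WT library. The difference did not pass the threshold (54.8 ± 3.55 against 40.4 ± 9.53 CPM, log2 fold change −0.44, SE 0.18, adjusted p = 0.153). Without KO3, where 33.0% of all tested genes were called, it did, at −0.64 (adjusted p = 0.0095). For both ligands the call thus depended on KO3, and their sum ranged from 133 to 169 CPM in WT libraries and from 77.4 to 145 CPM in those labelled KO.

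The summed markers of fibroblasts and of skeletal muscle were likewise lower in KO1 and KO2 than in every WT library. The 8 fibroblast markers summed to 6670, 6580 and 8530 CPM in WT1 to WT3 and to 2880, 3650 and 6880 CPM in KO1 to KO3, so that, as for Ntn1, KO3 lay among the WT libraries. Most of this sum came from the collagen genes Col1a1, Col1a2 and Col3a1, whose WT means were 1877, 2059 and 2163 CPM. Dcn, the next most abundant marker with a WT mean of 764 CPM, did not follow the sum. It was counted 16906, 23180 and 15411 times in WT1 to WT3 and 12957, 19956 and 12428 times in KO1 to KO3. Relative to library size, Dcn was lowest in KO3, while KO1 and KO2 lay above WT1. The pattern of the sum is thus mainly that of the collagen genes. Across all 8 markers, the groups overlapped in 7. Of these markers, 7 had negative log2 fold changes and 0 were called by the quasi-likelihood test, with 1 at an unadjusted p under 0.05 and 0 called by the exact test or DESeq2. The 8 skeletal muscle markers summed to 11300 to 14500 CPM in WT libraries and 5570 to 8780 CPM in those labelled KO. All 8 had negative log2 fold changes and an unadjusted p under 0.05. The quasi-likelihood test called 1, Tnnt3, encoding a troponin of fast muscle (log2 fold change −1.01, SE 0.22, adjusted p = 0.0397), whereas the exact test called 6 and DESeq2 called 5. None of these markers was at 0 in any library, and their part in the ligand values was not tested. Several other marker sums were lower too, as given beside Unc5a.

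Dcc encodes the receptor deleted in colorectal carcinoma, the main netrin-1 receptor of growing axons (chromosome 18, 71253634 to 72351069). It had 1 count in WT1, 1 in WT2 and 0 in WT3, and 236 in KO1, 346 in KO2 and 137 in KO3. As CPM these were 0.0363, 0.0425 and 0 in the WT libraries and 12.1, 11.4 and 6.27 in the libraries labelled KO. All 3 WT libraries were thus under 3 counts, and the libraries labelled KO differed among themselves by 1.93-fold, with KO3 the lowest.

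Set against 3 counts in each WT library, the mean of 9.91 ± 3.17 CPM in the libraries labelled KO was 80.1 times as high. This ratio lay at 71.3 without KO1, at 74.1 without KO2 and at 94.8 without KO3. The lowest library labelled KO had 46.4 times the highest CPM that 3 counts equalled in a WT library. The same counts chose the set, so these ratios describe that choice and test nothing. The 3 counts were the limit given for a count of 0, while WT1 and WT2 had 1 count each. The ratios are therefore not bounds, and they leave out the counting error of the libraries labelled KO. The 719 reads of the libraries labelled KO made up a low level all the same: per kilobase of exon, Dcc had 0.752 ± 0.241 CPM there, and its level was between 1.72% and 3.71% of that of Neo1 in the same library.

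Dcc lies in a gene-poor stretch, where the nearest gene on one side with an entry in the table is Mbd2, which encodes a methyl-CpG binding protein and lies 627.5 kb away. Mbd2 had the same level in both groups within its spread (96.0 ± 9.65 and 95.9 ± 7.57 CPM, adjusted p = 0.994). On the other side the nearest gene, the ribosomal RNA copy n-R5-8s1, had at most 1 count in any library. No annotated gene with an entry in the table overlaps Dcc.

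The pattern of Dcc was shared by other genes. Of 6610 genes with at most 3 counts in each WT library, 142 had more than 3 counts in each library labelled KO. Of these, 12 had at least as many counts in their lowest library labelled KO as Dcc had in its own. Dcc is itself included in each of these numbers. The 5 tested genes closest to Dcc, by the root mean square difference of log2 CPM over the 6 libraries, were Gm12495 (0.229), Gm5335 (0.344), Gm13191 (0.386), Gm12114 (0.422) and Defb13 (0.428). Defb13, which encodes a beta-defensin, had 1, 1 and 0 counts in the WT libraries and 137, 246 and 96 in KO1 to KO3, and like Dcc it was lowest in KO3. The other 4 are predicted genes known by a provisional symbol only.

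Since Dcc is best known in neurons, the neuron markers are given beside it. Of 8 markers with an entry in the table, Snap25, Nefm, Elavl3, Elavl4 and Rbfox3 had at most 5 counts in every library. The summed level of the 8 ranged from 38.3 to 53.6 CPM in WT libraries and from 37.5 to 42.7 CPM in those labelled KO, and 0 of the 2 that could be tested, Stmn2 and Tubb3, were called by the quasi-likelihood test, the exact test or DESeq2, with 1 at an unadjusted p under 0.05. Both had negative log2 fold changes, of −0.52 and −0.15. Which cells of the lip held the Dcc transcript was not tested.

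Neo1 encodes neogenin, the close relative of Dcc that binds netrins and the repulsive guidance molecules and acts as a co-receptor for bone morphogenetic proteins (chromosome 9, 58874687 to 59036441). It had 109 CPM in WT1, 119 in WT2 and 127 in WT3, and 215 in KO1, 216 in KO2 and 241 in KO3. Every library labelled KO lay well above every WT library, with KO3 the highest of all. The means were 118.5 ± 8.97 and 224 ± 14.5 CPM, an increase of 89.0% (log2 fold change 0.92, SE 0.13, adjusted p = 0.00473). The call was made in all 6 fits with 1 library left out, at log2 fold changes of 0.86 to 1.01, and under all 10 other settings of the analysis, at 0.86 to 0.97 with adjusted p between 2.1e-08 and 0.0115.

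The summed markers of suprabasal keratinocytes were higher in the same libraries as Neo1, while the groups overlapped in 2 of the 6 markers, Sbsn and Dsg1a. All 6 of these markers had positive log2 fold changes and their sum ranged from 17400 to 21500 CPM in WT libraries and from 28400 to 43000 CPM in those labelled KO, and the quasi-likelihood test called Ivl, encoding involucrin, higher (log2 fold change 1.55, SE 0.31, adjusted p = 0.0292). The exact test and DESeq2 each called 3, Ivl and the keratin genes Krt1 and Krt10, and limma-voom and the older quasi-likelihood fit each called 2. Of all 15009 tested genes, limma-voom called 613 higher and 332 lower, and the older quasi-likelihood fit 649 and 294. None of the 6 was at 0 in any library. The summed level of these markers was lowest in KO3 among the libraries labelled KO, whereas Neo1 was highest there, and the part of cell composition in the Neo1 result was not tested. The sums of basal keratinocyte markers overlapped, with 9730 to 10900 and 9460 to 11200 CPM. Hcn4, encoding a pacemaker channel and lying 11.5 kb from Neo1, had a log2 fold change of −0.56 that was not called (adjusted p = 0.132).

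The promoter of Neo1 is shown because Neo1 was the member called in every fit, and that of Gtf2ird1 because GGATTA is a core motif described for binding of the GTF2IRD1 protein. Both are the 250 bases upstream of the RefSeq start (GRCm38.p6), read on the strand of the gene, at chr9:59036442-59036691 on the minus strand for Neo1 and chr5:134456717-134456966 on the minus strand for Gtf2ird1. Capitals mark GGGCGG, the GC box bound by Sp1 and its relatives, on either strand in Neo1, and GGATTA on either strand in Gtf2ird1.
Neo1: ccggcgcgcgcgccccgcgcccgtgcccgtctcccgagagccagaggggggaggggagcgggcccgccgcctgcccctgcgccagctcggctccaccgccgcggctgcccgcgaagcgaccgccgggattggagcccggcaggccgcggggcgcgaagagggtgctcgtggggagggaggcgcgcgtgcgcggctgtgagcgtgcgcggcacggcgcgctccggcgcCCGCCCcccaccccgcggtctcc
Gtf2ird1: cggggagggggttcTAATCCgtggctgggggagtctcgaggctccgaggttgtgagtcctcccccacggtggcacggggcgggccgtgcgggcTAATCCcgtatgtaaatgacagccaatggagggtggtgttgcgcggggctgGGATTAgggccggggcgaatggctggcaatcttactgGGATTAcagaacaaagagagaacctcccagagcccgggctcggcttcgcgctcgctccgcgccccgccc
The Gtf2ird1 window held GGATTA 4 times, counting both strands, a number reached by 0.00609% of 32851 promoters of the same length, while 6.25% of them held it at least once. The promoter of Dcc was not looked up. Of the 8 members other than Dcc, 6 had an entry among these promoters (Ntn4, Neo1, Unc5a, Unc5b, Unc5c and Dscam). None of these held GGATTA, so 0 of the 6, which says only that these letters are not in this window. GGGCGG was held by 4 of the 6 and by 32.7% of all promoters, with overlapping matches counted separately. The Neo1 window was rich in CG dinucleotides, with 45 against a median of 6, which is more than in 99.6% of the promoters.

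Unc5b, the Unc5 receptor of blood vessels, was the most abundant of its group (chromosome 10, 60762593 to 60831581). Its level was 146, 127 and 161 CPM in WT1 to WT3, and 85.0, 101 and 104 CPM in KO1 to KO3. The groups did not overlap and all 3 libraries labelled KO were lower, KO3 included. The difference of 145 ± 17.2 against 96.5 ± 10.1 CPM nevertheless narrowly missed the threshold (log2 fold change −0.58, SE 0.15, adjusted p = 0.0543).

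Unc5b was called lower by the exact test of edgeR, in which 14.9% of all tested genes were called, by DESeq2, in which 14.7% were, and after upper-quartile normalization, in which 6.78% were. Without KO3, where 33.0% of all tested genes were called, it was called as well (log2 fold change −0.63, adjusted p = 0.0144). Of the 8 endothelial markers all had negative log2 fold changes and none was at 0 in any library. The quasi-likelihood test called 0 of them, with 2 at an unadjusted p under 0.05, and the exact test and DESeq2 each called 1, Esam. Their sum ranged from 231 to 277 CPM in WT libraries and from 150 to 262 CPM in those labelled KO. Relative to this sum Unc5b had 0.632, 0.516 and 0.581 in WT1 to WT3 and 0.568, 0.598 and 0.395 in KO1 to KO3. The groups overlapped once scaled in this way, with KO1 and KO2 within the WT range and KO3 below it. The part of endothelial cells in the Unc5b values was not tested.

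Unc5a, a repulsive netrin receptor best known from neurons, was 1 of the 2 members that passed the test (chromosome 13, 54949411 to 55006018). It was counted 113, 81 and 77 times in WT1 to WT3 and 23, 34 and 45 times in KO1 to KO3, which gave 4.10, 3.44 and 3.46 CPM and 1.18, 1.12 and 2.06 CPM. Each library labelled KO lay below each WT library, KO3 being the closest to them. Unc5a fell by 60.7% (3.67 ± 0.374 against 1.45 ± 0.526 CPM, log2 fold change −1.35, SE 0.28, adjusted p = 0.0324). The direction was the same with each library left out, at −1.67 to −1.12. The call was lost in every such fit except that without KO3 (adjusted p = 0.00183), where 33.0% of all tested genes were called. The summed Schwann cell markers had 471 to 507 CPM in WT libraries and 293 to 427 CPM in those labelled KO. All 6 had negative log2 fold changes and none was at 0. Hair follicle, pericyte and smooth muscle, adipocyte, Merkel cell and skeletal muscle markers likewise had lower sums in every library labelled KO than in any WT library. Sums of fibroblast, endothelial, neuron, macrophage, T cell, melanocyte and basal keratinocyte markers overlapped between the groups. The part of any of these cells in the Unc5a result was not tested.

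Unc5a shares 34 exon bases with Hk3, a hexokinase gene on the opposite strand, and the sources used here do not state whether reads were counted by strand. Hk3 had a log2 fold change of −0.46 that was not called (adjusted p = 0.185). The promoter of Unc5a is printed because Unc5a was the member that fell, and it spans chr13:54949161-54949410 on the plus strand (RefSeq, GRCm38.p6), with GGGCGG on either strand in capitals.
Unc5a: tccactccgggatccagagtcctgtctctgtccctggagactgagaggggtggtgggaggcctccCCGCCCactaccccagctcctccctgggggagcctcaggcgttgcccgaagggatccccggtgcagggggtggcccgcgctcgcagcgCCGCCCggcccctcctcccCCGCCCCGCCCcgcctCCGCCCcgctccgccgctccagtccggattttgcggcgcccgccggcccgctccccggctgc
This window held 5 matches of GGGCGG and 25 CG dinucleotides, and that of Neo1, the member that rose, held 1 and 45. Among members not called, Ntn4 had 4 and 26, Unc5b 2 and 27, and Unc5c 0 and 23. Dscam, which was not tested, had 0 and 21. A relation of these numbers to the direction of change was not tested.

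Unc5c and Unc5d, repulsive receptors known from the developing nervous system, were counted at low levels in every library. Unc5c (chromosome 3, 141465216 to 141834924) had 40, 63 and 52 counts in WT1 to WT3 and 36, 51 and 28 in KO1 to KO3. The groups overlapped (2.16 ± 0.633 and 1.60 ± 0.289 CPM, log2 fold change −0.42, SE 0.30, adjusted p = 0.364). It shares 118 exon bases with the antisense gene Gm15688, which had at most 1 count in any library. Unc5d (chromosome 8, 28646717 to 29219636) had 27, 43 and 31 counts in WT1 to WT3 and 46, 16 and 31 in KO1 to KO3. KO1 was the highest and KO2 the lowest of all 6 libraries, and with 1.40 ± 0.424 and 1.43 ± 0.914 CPM no difference was detectable at this depth (log2 fold change −0.01, SE 0.50, adjusted p = 0.993).

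Dscam, the Down syndrome cell adhesion molecule and a further netrin-1 receptor, was barely detected (chromosome 16, 96590840 to 97170752). It had 6, 3 and 5 counts in WT1 to WT3 and 4, 23 and 8 in KO1 to KO3. The highest value came from KO2 alone, and the groups overlapped. Dscam did not pass the filter on low counts, and when all genes were fitted its log2 fold change was 1.34 (SE 0.58, adjusted p = 0.214).

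**Figure D2:**
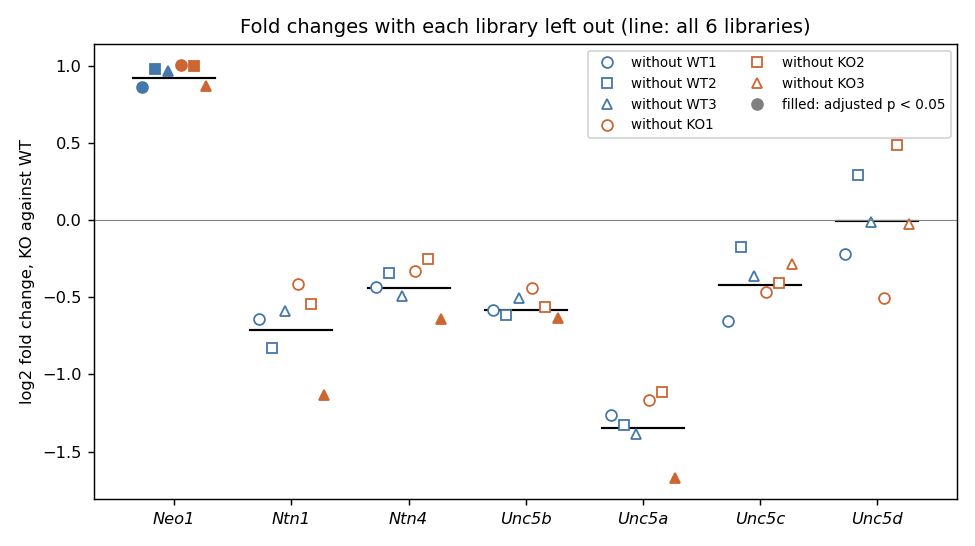
The log2 fold change (libraries labelled KO against WT) of each tested member other than Dcc is plotted with all 6 libraries as a line and with each library left out as a point, filled where the adjusted p was under 0.05. Neo1 is filled at all 6 points, at 0.86 to 1.01, and Ntn1, Ntn4, Unc5b and Unc5a are filled only without KO3.

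Levels per kilobase of exon, which allow genes to be set against each other, set 4 abundant members far above the other 5 in the WT. Unc5b was the highest at 23.2 ± 2.76 CPM per kilobase, above every WT library of the next 3 genes. Ntn1 (16.1 ± 3.71), Ntn4 (14.6 ± 0.961) and Neo1 (13.6 ± 1.05) followed and overlapped each other. Unc5a was far lower at 0.880 ± 0.0898, and below it Unc5d (0.152 ± 0.0460) and Unc5c (0.113 ± 0.0331) overlapped. Dscam at 0.0216 ± 0.00617 and Dcc at 0.00200 ± 0.00175 came last.

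In the libraries labelled KO the order was headed by Neo1 at 25.7 ± 1.65 CPM per kilobase, above Unc5b at 15.4 ± 1.61 in every library. Ntn4 (10.8 ± 2.58) and Ntn1 (9.85 ± 4.48) overlapped with each other and with Unc5b. Dcc followed at 0.752 ± 0.241 and overlapped with Unc5a (0.348 ± 0.127), the gene it exceeded in KO1 and KO2 but not in KO3. Unc5d (0.155 ± 0.0990), Unc5c (0.0836 ± 0.0151) and Dscam (0.0503 ± 0.0322) overlapped.

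**Figure D3:**
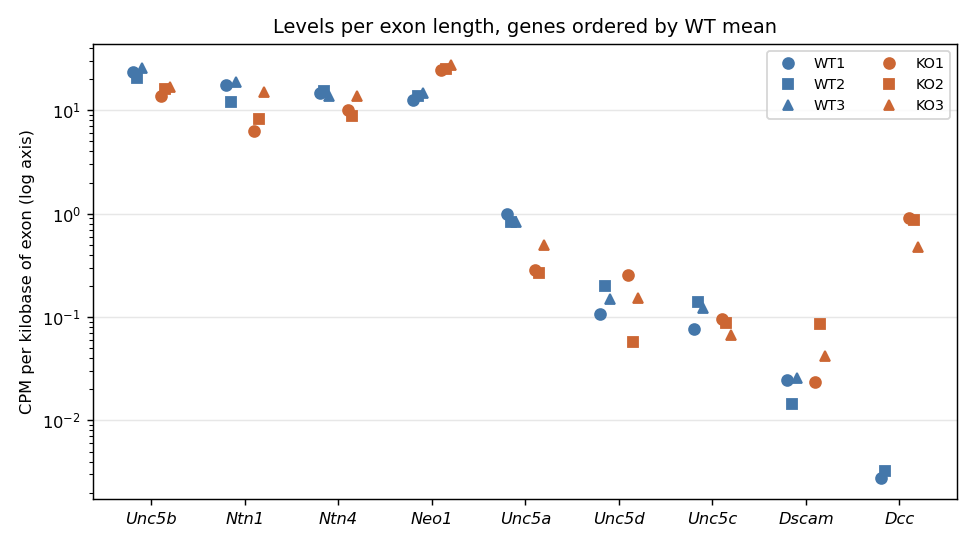
Levels of the 9 members in CPM per kilobase of exon are plotted on a log axis for each library, with the genes ordered by their WT mean and the count of 0 for Dcc in WT3 not drawn. Unc5b leads in the WT at 23.2 ± 2.76, and Neo1 leads in the libraries labelled KO at 25.7 ± 1.65.

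The balance of the receptor classes within each library was computed after the values of single genes were seen, and is given with no test. The level of Neo1 per kilobase relative to that of Unc5b was 0.537, 0.673 and 0.567 in WT1 to WT3 and 1.82, 1.54 and 1.67 in KO1 to KO3. Unc5b thus exceeded Neo1 in every WT library and Neo1 exceeded Unc5b in every library labelled KO, KO3 lying between the other libraries of its group. Adding Dcc to Neo1 and the other Unc5 genes to Unc5b changed this little, to 0.511, 0.636 and 0.544 in the WT and 1.80, 1.55 and 1.63 in the libraries labelled KO. Unc5b made up 94.6% to 95.9% of the summed Unc5 level in the WT and 95.5% to 97.5% in the libraries labelled KO. The ratio of the ligands, Ntn1 over Ntn4, overlapped between the groups (0.769 to 1.38 in the WT and 0.635 to 1.09 in the libraries labelled KO).

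Among the genes next to the members on the chromosome, 18 had an entry in the table, 9 were tested and 0 were called by the quasi-likelihood test, the exact test or DESeq2, with 3 at an unadjusted p under 0.05, while 7 had at most 3 counts in every library. The gene closest to Unc5b, Slc29a3, which encodes a nucleoside transporter 9.8 kb away, had a log2 fold change of 0.19 (adjusted p = 0.374), opposite in sign to that of Unc5b. Bmpr1b, encoding a bone morphogenetic protein receptor 2.2 kb from Unc5c, had −0.26 (adjusted p = 0.429).

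The rest of the netrin pathway was read from 3 further lists. Of 39 tested genes in these, 1 was called higher and 1 lower, beside 4.38% and 2.09% of all tested genes. The median log2 fold change of the 39 was −0.05. Among the other netrins and netrin-G ligands, 0 of 5 tested genes were called by the quasi-likelihood test, the exact test or DESeq2, with 2 at an unadjusted p under 0.05. All 5 had negative values, the lowest p being that of Ntn3, a secreted netrin, with 2.88 ± 0.547 and 1.61 ± 0.512 CPM (log2 fold change −0.83, SE 0.30, adjusted p = 0.116). Among the other ligands and partners, Flrt1, which encodes a fibronectin and leucine-rich repeat protein of the family that binds Unc5 receptors, fell from 9.22 ± 2.33 to 4.95 ± 0.279 CPM (log2 fold change −0.90, SE 0.22, adjusted p = 0.0491). This was the only call of the quasi-likelihood test among 7 tested genes of that list. Flrt1 was not called by limma-voom or the older quasi-likelihood fit, nor with DESeq2 size factors, no filter, a filter of 10 counts in every library or the replicate number as a block. The exact test and DESeq2 each called 3 genes of the list, Flrt1 and Hfe2 lower and Flrt3, with a log2 fold change of 0.90 (adjusted p = 0.0558 in the quasi-likelihood test of edgeR), higher.

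Among the intracellular effectors, the quasi-likelihood test called 1 of 27 tested genes, with 18 positive and 9 negative values. The exact test called 2, Enah and Appl1. DESeq2, which gave an adjusted p to more genes, called 5, Enah, Appl1 and Arhgef12 higher and Evl and Trim9 lower. Trim9 is not among the 27. Enah, encoding the actin regulator Mena that acts downstream of netrin receptors in growth cones, rose from 66.0 ± 8.18 to 102.5 ± 10.3 CPM (log2 fold change 0.64, SE 0.15, adjusted p = 0.0433), a call that was lost after scaling by library size alone or by the upper quartile. Trim9, a ubiquitin ligase that binds Dcc, was counted 34, 33 and 23 times in WT1 to WT3 and 4, 8 and 7 times in KO1 to KO3, and did not pass the filter. Trim9 was named after its values were seen. Its libraries labelled KO lay below every WT library, and when all genes were fitted its log2 fold change was −2.14 (SE 0.37, adjusted p = 0.00697). With 1 library left out, the calls of Enah and Flrt1 were both lost, except without KO3. In that fit both were made, beside 33.0% of all tested genes.

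**Figure D4:**
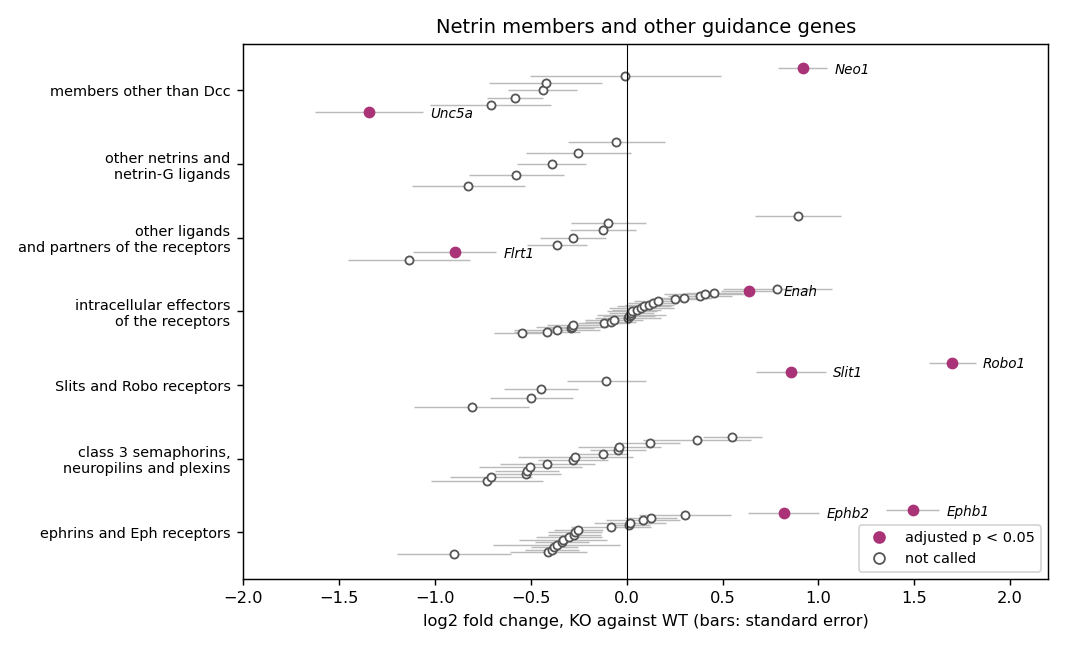
The log2 fold change (libraries labelled KO against WT) of each tested gene is plotted with its standard error for the members other than Dcc, the 3 further netrin lists and 3 other guidance families, filled where the adjusted p was under 0.05. Neo1 and Unc5a lie at 0.92 and −1.35, Enah and Flrt1 are the only filled genes of the further netrin lists, and Robo1 at 1.70 is the most positive gene plotted.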

How the data were processed

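Total RNA of the top lip was made into mRNA libraries by the Illumina protocol and sequenced as paired ends. Per the study's methods and processing notes, alignment to GRCm38 was by TopHat2 2.0.8 calling Bowtie2 2.1.0, and the deposited values are raw counts of uniquely mapped reads per gene from HTSeq-count, with no normalization. The strand setting and overlap mode are not given in the sources used here. All 6 columns were mapped to a library by name and 0 were left unused.

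Tested genes had 1 CPM or more in 3 libraries or more (15009 genes, 99.8% of the counts). Libraries were scaled by TMM and the genotypes compared with the quasi-likelihood F test of edgeR 4.0.16 (legacy=FALSE) in R 4.3.3, with Benjamini-Hochberg adjustment over all tested genes and a threshold of 0.05. The study used the exact test of edgeR and DESeq2, which are alternatives here (DESeq2 1.42.0, limma 3.58.1 for voom). CPM use the TMM-scaled library size. Exon lengths, positions and neighbours come from GENCODE M21 (GRCm38), in which 24804 of 26814 symbols were found once, and promoters from RefSeq. Figures were drawn with matplotlib 3.10.9. The tests were first tried on simulated data. The members and all gene lists were chosen with earlier results of these data known. Genes named are the members, Gtf2ird1, up to 4 called genes with the lowest p per list (or the gene with the lowest p where none was called), neighbours, overlapping genes and the 5 genes most like Dcc, by log2 CPM with a prior count of 2. Markers, genes called by another tool only, and Trim9 are named beside a count and fall outside this rule, and were chosen after their values were seen.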

Additional observations from a re-analysis of the deposited data

How the results depend on the processing

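The direction of Neo1, Ntn1, Ntn4, Unc5a, Unc5b and Unc5c was the same under all 10 alternatives and with each of the 6 libraries left out, and the call of Neo1 was as well. The value of Unc5d, −0.01 with all libraries, turned positive with the exact test (0.0097), DESeq2 (0.047), DESeq2 size factors (0.016), no filter (0.022), without WT2 (0.29) and without KO2 (0.49), and was lowest without KO1 (−0.51). Besides 657 genes higher and 314 lower, the exact test called 1165 and 1073 and DESeq2 called 1504 and 905. Limma-voom called 613 and 332, and the older quasi-likelihood fit 649 and 294. Genes lower numbered 207 with DESeq2 size factors, 204 with no filter and 204 with at least 10 counts in every library. The further netrin genes called, 2 of 39 in the analysis as reported, numbered 5 of 39 with the exact test. With DESeq2 they numbered 8 of the 42 to which it gave an adjusted p. They numbered 1 with limma-voom, the older quasi-likelihood fit, upper-quartile normalization, DESeq2 size factors, scaling by library size or the filter of 10 counts. With 1 library left out, 208 to 2496 genes were higher and 18 to 2395 lower, 1 to 5 members were called, and 0 to 14 further netrin genes. The upper ends came without KO3, where 33.0% of all tested genes were called. The members called there were Neo1, Ntn1, Ntn4, Unc5a and Unc5b, and in each other such fit Neo1 was the only one. Leaving out 1 library leaves 2 in its group, and the cause of the difference was not tested. Libraries with the same number deviated from their group means with correlations across genes of −0.192, 0.293 and 0.312, and KO1 correlated best with WT2 (0.407), so the numbers were not taken to pair the mice. With a replicate block, 580 genes were higher and 217 lower, 1 member (Neo1) and 1 further netrin gene (Enah) were called, and Unc5a had an adjusted p of 0.0514. Depth limits Dscam, Unc5c and Unc5d, which had at most 63 counts in any library.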

Other observations

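Other families of guidance genes in the lip were counted beside 4.38% of all tested genes called higher and 2.09% called lower. Of the Slit and Robo genes, which encode repellents of midline axons and their receptors, 2 of 6 tested genes were called higher and 0 lower. Robo1 was counted 1825, 1709 and 1663 times in WT1 to WT3 and 4760, 6804 and 4940 times in KO1 to KO3, and rose from 71.2 ± 4.45 to 231 ± 10.9 CPM (log2 fold change 1.70, SE 0.12, adjusted p = 0.000167). Slit1, encoding a secreted ligand of the Robo receptors, rose from 3.28 ± 0.225 to 5.94 ± 0.594 CPM (log2 fold change 0.86, SE 0.18, adjusted p = 0.0354). The other 4 tested genes of this list had negative values, none of them called, although Slit3 was by the exact test.

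Ephrins and Eph receptors signal by contact between cells. Of 19 tested genes of this list, 2 were called, both higher, beside 4.38% of all tested genes called higher. The log2 fold change was negative for 12 of the 19. Ephb1 rose from 29.0 ± 1.66 to 81.5 ± 9.59 CPM (log2 fold change 1.49, SE 0.14, adjusted p = 0.000639) and Ephb2 from 17.6 ± 2.88 to 31.1 ± 5.03 CPM (log2 fold change 0.82, SE 0.19, adjusted p = 0.0419). Among the class 3 semaphorins, neuropilins and plexins, 0 of 14 were called by the quasi-likelihood test of edgeR, with 5 at an unadjusted p under 0.05 (29.6% of all tested genes reached that), while the exact test called 1 and DESeq2 called 2. The lowest p was that of the receptor gene Plxna2, with 112 ± 10.8 and 164.5 ± 25.3 CPM (log2 fold change 0.55, SE 0.16, adjusted p = 0.0736). The log2 fold change was negative for 11 of the 14. Among these was Sema3g (−0.71, SE 0.21, adjusted p = 0.0829 in the quasi-likelihood test), which the exact test and DESeq2 both called. The differences between these families were not tested.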
